A study of Mus musculus with 32 samples.

Results

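The comparison described here is the effect of a fracture on the RNA of resident spinal cord microglia from male mice, read from 8 of the 32 libraries of the series. They are the 5 male libraries whose descriptions name them WT with fracture and the 3 named WT control, and all 8 are labelled day 14. Estimated counts of the transcripts of each gene were summed, which gave 11999 genes. Fracture libraries are numbered 1 to 5 and no-fracture libraries 1 to 3, as in the sample titles.

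The study sorted microglia by fluorescence from mice in which tamoxifen and then diphtheria toxin remove microglia for a time, and it concerns how the cells that grow back bear on the resolution of pain. The genotype given for all 32 is Cx3Cr1-Cre;Rosa26-iDTR, a toxin receptor switched on by a Cre recombinase under the promoter of the microglial and macrophage gene Cx3cr1. The 8 libraries come from mice labelled as having had no depletion, and are called resident. Used for comparison are 9 male repopulated libraries, from mice labelled as depleted (2 without and 7 with fracture). Also used are 8 female resident libraries (4 without and 4 with fracture). Female repopulated libraries, also from mice labelled as depleted (3 without and 4 with fracture), enter the levels of the called gene and the fit of all 32 libraries. The descriptions call the resident mice wild type although their genotype label equals that of the depleted mice, so their genotype and whether they received tamoxifen or toxin are not known. The labels give neither the age of the mice nor the bone that was broken. Nothing in them ties each library to its own animal, so p-values reflect only sample-to-sample spread, part of which may be technical.

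Microglia are the resident macrophages of the brain and spinal cord. After injury of a peripheral nerve or limb, spinal microglia can take part in pain through purine receptors, cytokines and chemokines. They also respond to type I interferon: the cytokine acts through transcription factors that bind a short repeated promoter element and switch on antiviral genes and the genes that load peptides onto MHC class I.

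The sorted cells had high levels of microglial genes in both groups. Tmem119, a membrane protein gene that marks microglia, stood at 8149 to 9418 CPM (a count divided by its library's TMM-scaled total) over the 8 libraries. Total estimated counts were 5722993 to 25574427 without and 11770850 to 33697535 with fracture, and mitochondrially encoded genes took 0.362% to 0.532% of them. No-fracture library 2 was the shallowest of the 8. Of markers of other cells, 0 of 11 T and NK cell, 0 of 6 oligodendrocyte precursor and 0 of 6 fibroblast genes were listed in the male table. That table leaves out genes seen in few libraries, so a gene not listed may still be present. Markers of other types were listed and are given below, with oligodendrocyte genes summing to 2611 to 2807 CPM without and 2447 to 2751 CPM with fracture.

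Of the genes measured, 1 differed between the fracture and no-fracture libraries past the adjusted threshold, and no other passed. In edgeR's quasi-likelihood test, 1 of 11999 genes had a p below 0.05 after Benjamini-Hochberg adjustment over all of them (0.00833%). At an unadjusted p below 0.05, 322 genes were higher (2.68%) and 189 lower (1.58%) with fracture. In 283 genes (2.36%) the 5 fracture libraries all stood above the 3 others, and in 260 (2.17%) all below. Over all genes the log2 change had a median of −0.0004, with 5993 positive and 6006 negative.

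**Figure D1:**
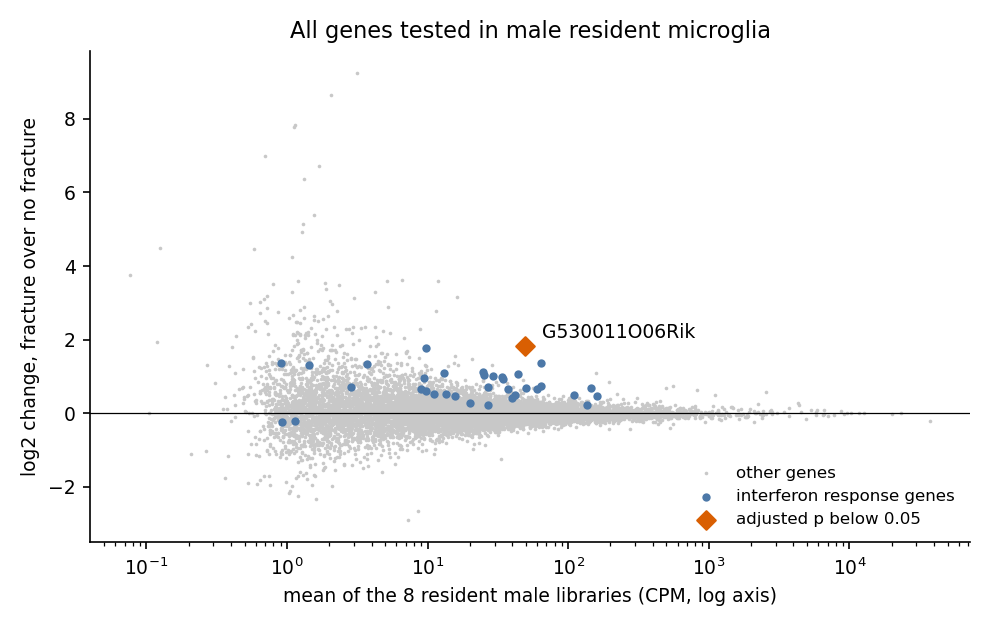
Mean level in the 8 resident male libraries (CPM, log axis) against the log2 change with fracture, 1 point per gene, with the 34 interferon response genes in blue and the 1 gene past an adjusted p of 0.05 as an orange diamond. G530011O06Rik is the called gene, and 32 of the 34 interferon points lie above 0.

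The precision of these changes depended on the level of the gene. The 95% interval of the log2 change lay within 2-fold in either direction for 8165 of the 11999 genes. That share was 99.16% above 100 CPM, 97.19% from 20 to 100 CPM, 59.19% from 5 to 20 CPM and 2.345% below 5 CPM. For most genes above 20 CPM the data therefore bound a change to under 2-fold, and below 5 CPM they seldom do. In this test of male resident microglia the called gene is the only one that passed. The fracture changes of other genes given below are measurements that did not pass it. Where another fit, method or comparison called a gene, this is stated with it.

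The called gene was G530011O06Rik, a noncoding transcript. It is named because it is the only gene called, which was seen after its values. Its levels were 20.4, 25 and 13 CPM without fracture and 58.8, 81.9, 85.0, 51.9 and 58.6 CPM with fracture. All 5 fracture libraries stood above all 3 others, with no overlap. The log2 change was 1.82 ± 0.22 (SE), or 3.53-fold with a 95% interval of 2.56 to 4.87 (edgeR, adjusted p = 0.000757).

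Set beside the other groups, the no-fracture libraries were the ones that stood apart. The 14 other male libraries had 51.9 to 99.7 CPM. They are the repopulated ones and the 5 fracture libraries already compared above. The 15 female libraries, resident and repopulated, had 48.9 to 179 CPM on the scale of their own table. The 3 male resident libraries without fracture were therefore the lowest of the 17 male ones. Their values were also below all female ones, which come from another kit and scale. These 3 carry the consecutive labels V77 to V79, so label order and fracture cannot be told apart for this gene. The fracture change was 0.12 ± 0.22 in male repopulated and 0.08 ± 0.33 in female resident microglia, with adjusted p of 0.962 and 0.986 by edgeR. The difference between the repopulated and resident effects was −1.70 ± 0.30 (adjusted p = 0.058), and between the female and male resident effects −1.74 ± 0.41 (adjusted p = 0.32), so neither difference passed.

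**Figure D2:**
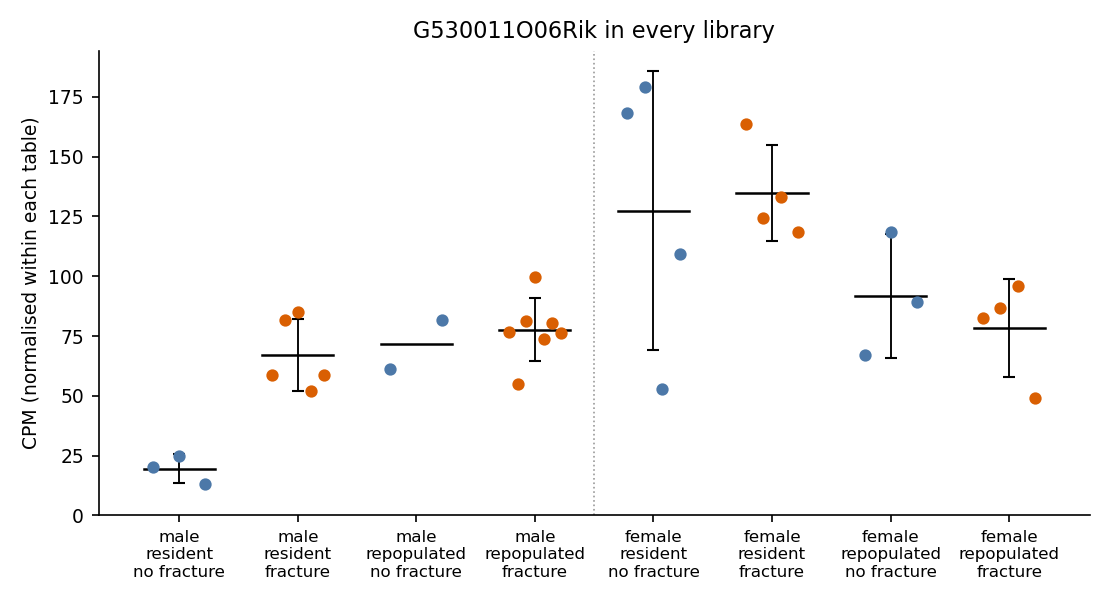
Level of G530011O06Rik (CPM) in each of the 32 libraries by group, blue without and orange with fracture, with bars at the mean and ± 1 SD where a group has over 2 libraries; the dotted line parts the male and female tables, which were normalised separately. The 3 male resident libraries without fracture, at 13 to 25 CPM, are the lowest points.

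G530011O06Rik lies at chrX:169975043-169978917 on the minus strand of GRCm38 (GENCODE M21), within Mid1 and antisense to it. Mid1 encodes a ubiquitin ligase of microtubules, and it spans the boundary of the mouse pseudoautosomal region, which the X and Y chromosomes share. The transcript has 2 exons and 2380 exon bases, of which 951 lie in some annotated Mid1 exon and 0 in an exon of the Mid1 transcript that the table lists. It starts 534 bases from the start of that Mid1 transcript, on the opposite strand. RefSeq places a copy of its promoter on both sex chromosomes. The windows are shown because they let the start of the gene on both chromosomes be compared. From 250 bases before to 30 after the start (RefSeq, GRCm38.p6), capitals mark bases that differ from the other copy or have no partner in it.
G530011O06Rik on X, chrX:169978888-169979167, minus strand: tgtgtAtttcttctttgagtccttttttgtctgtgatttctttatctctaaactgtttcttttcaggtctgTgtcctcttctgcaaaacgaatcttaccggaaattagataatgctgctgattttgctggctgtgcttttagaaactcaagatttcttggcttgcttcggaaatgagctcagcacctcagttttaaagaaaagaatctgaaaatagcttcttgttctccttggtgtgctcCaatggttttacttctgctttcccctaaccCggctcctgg
G530011O06Rik on Y, chrY:90755021-90755300, minus strand: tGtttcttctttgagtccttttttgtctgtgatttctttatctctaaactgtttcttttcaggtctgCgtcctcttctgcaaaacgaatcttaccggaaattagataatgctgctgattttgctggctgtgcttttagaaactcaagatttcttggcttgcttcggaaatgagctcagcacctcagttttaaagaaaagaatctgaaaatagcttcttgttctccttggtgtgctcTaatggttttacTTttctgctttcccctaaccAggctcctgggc
Over the 300 bases that the table holds for each copy, 296 bases aligned, of which 292 were identical and 4 differed, with 2 gap positions. The transcribed copies were not compared, and whether the level given for this gene combines both was not tested.

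Neighbouring genes were measured with less precision. Mid1 had 0.279, 1.01 and 0.237 CPM without fracture and 2.90, 4.86, 0.825, 2.92 and 2.54 CPM with it. The groups overlapped in fracture library 3, and the change of 2.64 ± 0.73 did not pass (edgeR, adjusted p = 0.98). Gm47283, a predicted gene annotated on the Y chromosome at chrY:90784738-90816464, was at 43.9, 28 and 19.6 CPM without fracture and at 58.7, 57.2, 68.3, 48.6 and 55.1 CPM with it. Its groups did not overlap, and its change of 0.91 ± 0.24 did not pass (adjusted p = 0.951). Female resident libraries, on their own scale, held it at 28.8 to 104 CPM without and 71.8 to 321 CPM with fracture. Counts of it therefore do not require a Y chromosome. Its change there was 1.61 ± 0.62 (edgeR, adjusted p = 0.94). Erdr1, a pseudoautosomal gene, differed by −0.14 ± 0.69. These 3 genes were chosen after their values were seen. Without a statement that counting used strand, reads of Mid1 and of its antisense transcript cannot be told apart where the genes overlap.

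Interferon response genes stood higher with fracture in most cases, and none of them passed the test. All 34 genes of the list were listed in the table, 32 with a positive log2 change, and the median was 0.69 against −0.0004 over all genes. Neither edgeR nor DESeq2 called any of the 34 (0 by each). At an unadjusted p below 0.05, 9 were higher and 0 lower (2.68% of all genes). In 12 of the 34 the fracture libraries all stood above the no-fracture ones (2.36% of all genes). Single members are therefore given as values.

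Herc6, which attaches the ubiquitin-like protein ISG15 to others, had 11.8, 17.5 and 16.7 CPM without fracture and 41.3, 28.2, 22.2, 33.5 and 31.7 CPM with it (1.04 ± 0.29; adjusted p = 0.98). Oas1a, whose enzyme makes the oligoadenylates that activate RNase L, had 11.1, 19.98 and 13.3 CPM against 41.3, 29.2, 24.1, 31.0 and 29.6 CPM (1.112 ± 0.352). Fracture library 1 was the highest for both, and neither pair of groups overlapped. Ifitm3, a membrane protein that blocks virus entry, was at 29.9, 39.6 and 29.0 CPM without and at 94.6, 73.2, 55.8, 129 and 64.6 CPM with fracture (1.36 ± 0.45). Trim30a, which dampens Toll-like receptor signalling, was at 42.4, 39.3 and 50.7 CPM against 76.9, 68.1, 58.8, 75.8 and 69.3 CPM (0.65 ± 0.23). Fracture library 4 was the highest for Ifitm3 and fracture library 3 the lowest for both genes.

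The chemokine gene Cxcl10, which draws T cells, had 3.35, 8.40 and 1.78 CPM without fracture and 21.7, 13.8, 10.5, 8.90 and 9.46 CPM with it (1.77 ± 0.68). Usp18, which removes ISG15 and restrains the interferon receptor, had 20.3, 22.3 and 20.4 CPM against 66.3, 36.9, 24, 44.8 and 36.7 CPM (0.99 ± 0.39). In both, the nearest fracture library was close to the highest no-fracture library. Rtp4, Ifi204, Isg15, Ifit1, Stat2 and Ifit2 were the other 6 genes whose groups did not overlap, with changes from 0.49 (Stat2, SE 0.35) to 0.74 (Rtp4, SE 0.32). Bst2, or tetherin, which holds budding virus at the cell surface, had an unadjusted p below 0.05 with groups that overlapped, at 82.9 to 96.9 CPM and 96.7 to 144 CPM. The 2 genes with a negative change, Oas3 and Mx2, were below 3 CPM in all 8 libraries. Reads of the Ifit, Oas and Ifi families may be split between near-identical copies, so their members are uncertain as single genes.

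**Figure D3:**
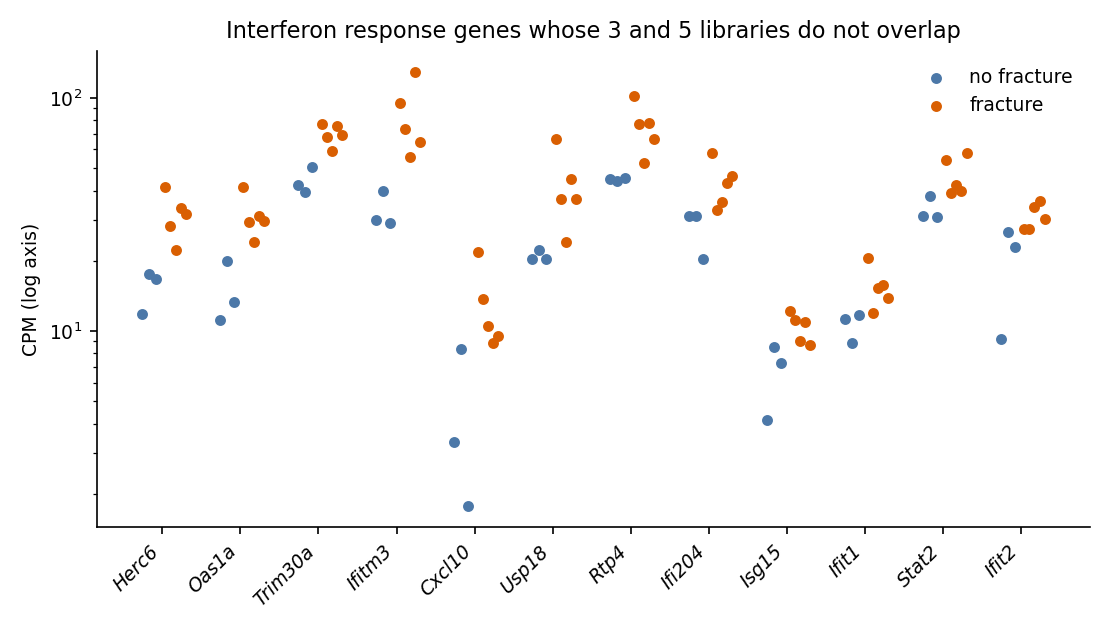
Levels (CPM, log axis) of the 12 interferon response genes in which all 5 fracture libraries (orange) stand above all 3 no-fracture libraries (blue) of male resident microglia, 1 point per library, ordered by p. The gap between the groups is small beside the spread of the fracture libraries for several genes, and none of the 12 passed the adjusted test.

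The element through which interferon acts was found in promoters of some of these genes and not of others. It was searched as GAAA, any 2 bases and GAAA again, on both strands and with overlapping matches counted, and occurred in 3.44% of 32851 RefSeq windows of 300 bases (250 before and 50 after each start), or in 3.99% of 27025 genes. Of the 24 list members that have a window, 15 held it, and so did 7 of the 9 with a window among the 12 genes above. Herc6 and Ifit2 had a window without a match. The list was chosen as interferon response genes, so its share of matches says nothing about fracture. A match is a description of the sequence and does not show binding. Windows of the 3 genes of smallest p that hold the motif are shown, trimmed to 30 bases after the start, with the motif in capitals (RefSeq, GRCm38.p6).
Oas1a, chr5:120907496-120907775, minus strand: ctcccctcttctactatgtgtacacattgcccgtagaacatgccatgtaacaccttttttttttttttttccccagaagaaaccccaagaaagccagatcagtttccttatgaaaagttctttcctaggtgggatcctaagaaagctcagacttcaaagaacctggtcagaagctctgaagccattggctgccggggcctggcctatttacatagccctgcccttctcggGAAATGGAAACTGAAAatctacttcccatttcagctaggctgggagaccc
Trim30a, chr7:104465164-104465443, minus strand: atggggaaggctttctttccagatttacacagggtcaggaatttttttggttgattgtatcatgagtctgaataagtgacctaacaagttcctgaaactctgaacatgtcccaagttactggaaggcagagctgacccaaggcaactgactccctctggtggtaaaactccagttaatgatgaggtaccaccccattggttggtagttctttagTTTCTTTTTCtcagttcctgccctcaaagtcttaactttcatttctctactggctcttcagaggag
Ifitm3, chr7:141010715-141010994, minus strand: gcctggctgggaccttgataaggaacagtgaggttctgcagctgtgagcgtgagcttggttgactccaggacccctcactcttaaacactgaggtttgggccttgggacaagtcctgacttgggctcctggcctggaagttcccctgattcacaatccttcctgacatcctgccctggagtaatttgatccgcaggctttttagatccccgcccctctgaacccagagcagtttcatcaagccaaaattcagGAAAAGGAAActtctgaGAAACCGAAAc
In Oas1a 2 matches overlap, Ifitm3 has 2 matches apart from each other, and Trim30a has 1 on the opposite strand.

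The mean level of the list also separated the groups, narrowly. The mean log2 CPM of the 34 genes was 3.34, 3.96 and 3.69 without fracture and 4.66, 4.27, 3.98, 4.39 and 4.43 with fracture. Fracture library 3 lay just above no-fracture library 2. Such separation was not limited to this list: in 5 of the 24 lists of gene programs the mean was higher in all 5 fracture libraries. The other 4 were antigen presentation (6.88 to 7.03 and 7.10 to 7.77), complement (7.36 to 7.57 and 7.75 to 8.21), inflammatory signalling (5.34 to 5.40 and 5.44 to 5.71) and lysosome and phagocytosis (9.12 to 9.16 and 9.21 to 9.28). In 11 of the 34 genes the 3 no-fracture libraries stood below all 14 other male libraries. This held for 90 of all genes (0.75%), while 70 genes (0.583%) showed the reverse. The 14 include the 5 fracture libraries already compared above. The other 9 are repopulated libraries, whose list means all stood above those of the 8 resident ones. The count of 11 is therefore no separate evidence on fracture. Left out 1 at a time, the 8 libraries gave list medians of 0.61 to 0.78. With only libraries whose labels are numbered V64 to V79, which leaves fracture libraries 1 to 3, the median was 0.66, and with the label number range as a factor it was 0.48. The no-fracture libraries are V77 to V79 and fracture libraries 1 to 3 are V64 to V66. Neither setting can therefore part label order from fracture.

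In the other fracture comparisons of the series the same list had negative changes. In male repopulated microglia its median was −0.66, with 1 of 34 positive, against 0.01 over all genes, and in female resident microglia −0.73, with 0 of 34 positive, against −0.01. These comparisons have controls of their own. Called genes numbered 1 of 11999 in repopulated males (0.00833%) and 0 of 13377 in resident females (0%), and 995 and 659 had an unadjusted p below 0.05. No list member was among the calls.

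The difference between the effects was tested directly, in fits that share the 8 libraries with the values above. For repopulated minus resident males, 1 of 11999 genes was called (0.00833%), and none in the list. At an unadjusted p below 0.05, 21 of the 34 had a negative difference, against 477 of all genes (3.98%). For female minus male resident microglia, edgeR called 0 of 11617 genes (0%) and DESeq2 called 24, while 620 had an unadjusted p below 0.05 in edgeR. There 28 of the 34 had a negative difference at an unadjusted p below 0.05, against 433 of all genes (3.73%). The median differences were −1.40 and −1.51, against 0.02 and 0.002 over all genes. The female libraries were made with another kit, so sex and kit cannot be told apart.

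The levels behind these differences were not alike. Over the 34 genes the mean log2 CPM was 6.78 and 7.03 in the 2 repopulated male libraries without fracture and 4.98 to 7.01 in the 7 with fracture. All 9 stood above the 8 resident male libraries. Oas1a, for example, was at 11.1 to 19.98 CPM in resident males without fracture, 24.1 to 41.3 CPM in resident males with fracture, 139 and 150 CPM in repopulated males without fracture and 49.4 to 173 CPM in repopulated males with fracture. In female resident libraries, on their own table's scale, it was at 59.0 to 204 CPM without and 51.1 to 105 CPM with fracture, and these overlapped.

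**Figure D4:**
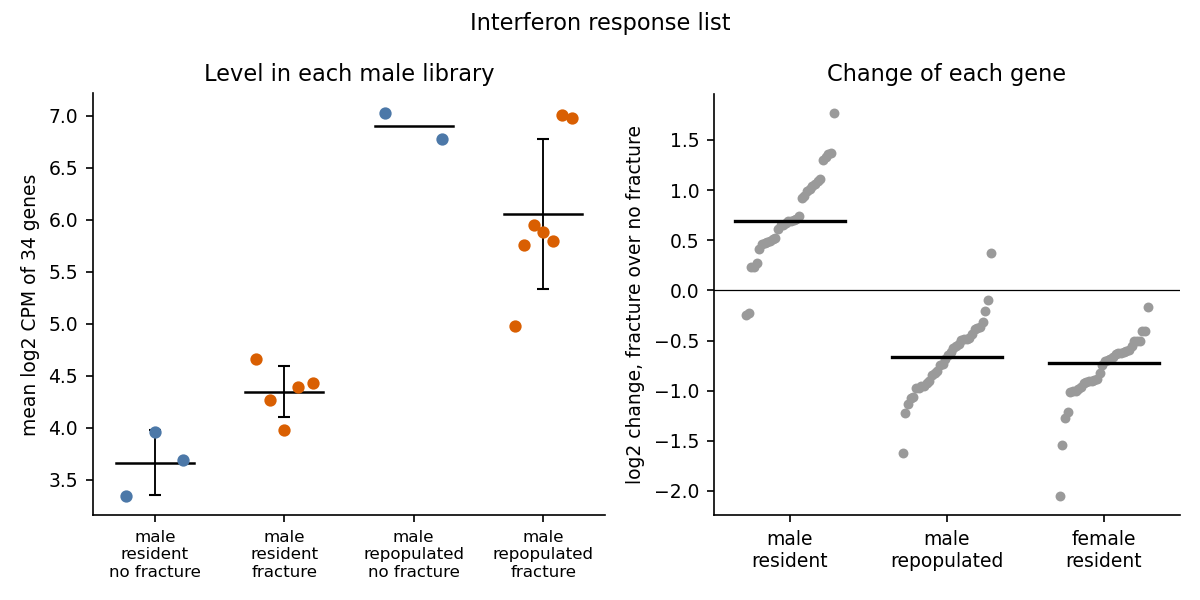
Left, mean log2 CPM of the 34 interferon response genes in each male library by group (blue without and orange with fracture, bars at the mean and ± 1 SD where a group has over 2 libraries). Right, log2 change with fracture of each of the 34 genes in 3 comparisons, with a line at the median, which is 0.69 in male resident, −0.66 in male repopulated and −0.73 in female resident microglia.

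Antigen presentation genes had small positive changes, and 0 of 23 measured passed. All 23 were positive, with a median of 0.31, 3 had an unadjusted p below 0.05 (2.68% of all genes were higher at that p) and in 5 the fracture libraries all stood higher (2.36% of all genes). The class I heavy chain gene H2-K1 was at 626, 644 and 578 CPM without fracture and 1043, 840, 932, 989 and 924 CPM with it (0.62 ± 0.23). H2-D1, a heavy chain gene of the same kind, was at 1934, 2064 and 1903 CPM against 3111, 2625, 2823, 3114 and 2981 CPM (0.58 ± 0.22; edgeR, adjusted p = 0.9997). Both sets of 3 lay close together and well below the 5. B2m, the light chain, was at 3415 to 4369 CPM and 3959 to 4883 CPM, which overlapped (0.28 ± 0.13).

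In this test all 17 male libraries share 1 estimate of the spread of each gene. H2-K1 ranged from 1373 to 3146 CPM and H2-D1 from 5053 to 11160 CPM over the 7 repopulated fracture libraries. With only the 8 resident libraries in the fit, 5 genes were called, namely G530011O06Rik, H2-D1, H2-K1, Ccl12 and Ttbk2, all higher. Ttbk2, a kinase gene, was at 0 in the 3 no-fracture libraries and at 1.62 to 5.88 CPM in the 5 others. H2-D1 and H2-K1 had an adjusted p of 0.00732 in that fit. The H2 genes are a family of near-identical members, and reads may be split among them.

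Of the class II genes, H2-Aa and Cd74 were highest in 1 library. H2-Aa, a class II chain, was at 3.59, 5.71 and 13.6 CPM without fracture and at 8.17, 7.79, 9.29, 57.5 and 18 CPM with it. Cd74, the invariant chain, was at 122, 112 and 156 CPM and at 154, 113, 139, 551 and 213 CPM. Fracture library 4 was the highest in both genes and fracture library 5 next, above all 3 no-fracture libraries, while fracture libraries 1 to 3 lay within the no-fracture range. Without fracture library 4 the median of the list was 0.16.

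Fracture library 4 also had the most RNA of monocyte markers. The 5 of 10 markers listed (Itgal, Plac8, S100a4, S100a6 and Fn1) summed to 2.53 to 12.8 CPM without fracture and to 9.63, 3.32, 5.10, 101.3 and 14.9 CPM with it, while the defining markers Ly6c2 and Ccr2 were not listed in the table. The list's median of 2.29 was 0.02 without fracture library 4. S100a6, a calcium-binding protein gene, was at 0.168 to 0.435 CPM without and 0.572 to 4.45 CPM with fracture. Fn1, encoding fibronectin, was at 0 in the 3 no-fracture libraries and at 2.45, 0.643, 2.20, 0.278 and 3.42 CPM in the fracture libraries. Unlike the 4 other markers, it was lowest of the fracture libraries in library 4. The part of such cells in the changes of class II genes was not tested, and in bulk RNA more cells of a type and more RNA per cell cannot be told apart.

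Other cell types differed little between the groups. Summed markers overlapped for border-associated macrophages (5 of 10 listed; 201 to 218 and 181 to 252 CPM), B cells (4 of 9; 495 to 560 and 441 to 554 CPM), oligodendrocytes (6 of 10; 2611 to 2807 and 2447 to 2751 CPM) and astrocytes (5 of 10; 121 to 149 and 118 to 154 CPM). Csf3r, the only one of 9 neutrophil markers listed, was at 346 to 427 and 378 to 454 CPM. Pecam1, the 1 endothelial marker of 10, was at 17.3 to 28.2 and 18 to 21.5 CPM. Neuron markers (2 of 10) summed to 7.15 to 10.2 and 1.53 to 9.90 CPM. Haemoglobin genes summed to 98.7 CPM in no-fracture library 3, and to 0.875 to 16.1 CPM in the 7 other libraries. Their median of −2.78 became 2.01 without that library.

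Genes of dividing cells were low and varied between libraries. Of 22 mitosis genes 20 had a positive change, with a median of 0.85, and 0 passed; 2 were higher at an unadjusted p below 0.05 (2.68% of all genes) and in 2 the fracture libraries all stood higher (2.36% of all genes). Racgap1, needed to split the cell in cytokinesis, was at 1.40, 5.21 and 8.22 CPM without fracture and at 19.9, 9.26, 9.10, 9.95 and 13.2 CPM with it (1.31 ± 0.47). Top2a, the topoisomerase of dividing cells, was at 0.678 to 5.21 and 3.85 to 20.4 CPM, with fracture library 1 the highest. Mki67, the usual marker of cycling cells, was at 3.60 to 5.10 and 2.93 to 5.33 CPM (−0.01 ± 0.91). The list median was 0.58 without fracture library 1 and 1.00 without fracture library 2.

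DNA replication genes were similar, with 14 of 19 positive and a median of 0.26. Of these 0 passed, 4 were higher at an unadjusted p below 0.05 (2.68% of all genes), and in 5 the fracture libraries all stood higher (2.36% of all genes). The median was 0.18 without no-fracture library 1, 0.39 without no-fracture library 3 and 0.42 without fracture library 5. Tyms, the thymidylate synthase gene, was at 11.96, 10.6 and 14.7 CPM without fracture and at 22.6, 27.1, 16.7, 17.7 and 18.2 CPM with it (0.71 ± 0.25). Rrm2, a subunit of the enzyme that makes deoxynucleotides, was at 1.28 to 6.55 and 4.94 to 14.2 CPM, which overlapped. Pcna, the sliding clamp of DNA polymerase, differed by −0.15 ± 0.16.

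Homeostatic microglial genes, which mark unstimulated microglia, differed by small amounts. All 25 were listed, 11 with a positive change, the median was −0.03, and the range of changes was −0.20 to 0.15. None passed by edgeR, none by DESeq2, and 1 had an unadjusted p below 0.05, Siglech, at 1213 to 1340 and 1075 to 1242 CPM (−0.15 ± 0.07). P2ry12, through which microglia sense ADP and steer their processes, was at 6856, 7203 and 7654 CPM without fracture and at 6594, 6671, 7340, 7049 and 6576 CPM with it (−0.08 ± 0.12). Tmem119 (0.07 ± 0.09), Cx3cr1 (−0.06 ± 0.11) and Csf1r (−0.01 ± 0.07) overlapped likewise. The microglial transcription factor list had a median of 0.01 over 17 genes, with Irf8 at 0.01 ± 0.06.

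Genes studied in microglia for pain gave a median of 0.02 over 18 measured, and 0 passed. The ATP-gated channel gene P2rx4 was at 151, 140 and 154 CPM without fracture and at 189, 173, 196, 170 and 183 CPM with it (0.29 ± 0.10). Its groups did not overlap, and the interval excluded a change of over 1.5-fold. P2rx7, a channel of the same family, was at 262 to 317 CPM without and 261 to 313 CPM with fracture (0.03 ± 0.09). Ptgs1, a cyclooxygenase gene, was at 1685 to 1775 and 1386 to 1663 CPM, lower in all 5 (−0.15 ± 0.08). Ctss, the protease that frees fractalkine, differed by 0.01 ± 0.08. Hcar2, a receptor for hydroxybutyrate and niacin, was at 25.8, 16.3 and 18.4 CPM against 35.8, 27.3, 42.6, 42.6 and 36.3 CPM (0.85 ± 0.21; edgeR, adjusted p = 0.744).

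Inflammatory signalling genes had a median of 0.13 over 25 measured, 19 of them positive, and 0 passed. Without no-fracture library 2 the median was 0.069. Ccl12, a chemokine gene for monocytes, was at 102.8, 102.1 and 73 CPM without fracture and at 256, 158, 193, 182 and 193 CPM with it (1.09 ± 0.29; adjusted p = 0.98). All 5 stood above all 3. Ccl2, of the same family, overlapped at 6.20 to 11.9 and 11.3 to 22.8 CPM (0.70 ± 0.31). Il1b (0.51 ± 0.39), Tnf (−0.21 ± 0.42) and Ccl3 (0.15 ± 0.34) were uncertain, at 2.43 to 12.7, 3.34 to 10.6 and 19.1 to 41.9 CPM over the 8 libraries.

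Among 22 disease-associated microglia genes, 16 were positive with a median of 0.10, and 0 passed. That median was 0.31 without no-fracture library 1, 0.061 without no-fracture library 2 and 0.16 without fracture library 5. Csf1, the growth factor gene of macrophages, was at 25.8, 24.2 and 24.3 CPM without fracture and at 40.1, 37.2, 54.7, 41.0 and 44.4 CPM with it (0.81 ± 0.33). The chemokine gene Ccl6 was at 362, 323 and 300 CPM against 232, 283, 245, 219 and 232 CPM (−0.44 ± 0.12; adjusted p = 0.98). These 2 genes had opposite directions and no overlap. Apoe, which carries lipids between cells, overlapped at 793 to 1027 and 862 to 1593 CPM (0.50 ± 0.38), and the lipid receptor gene Trem2 differed by −0.08 ± 0.09.

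**Figure D5:**
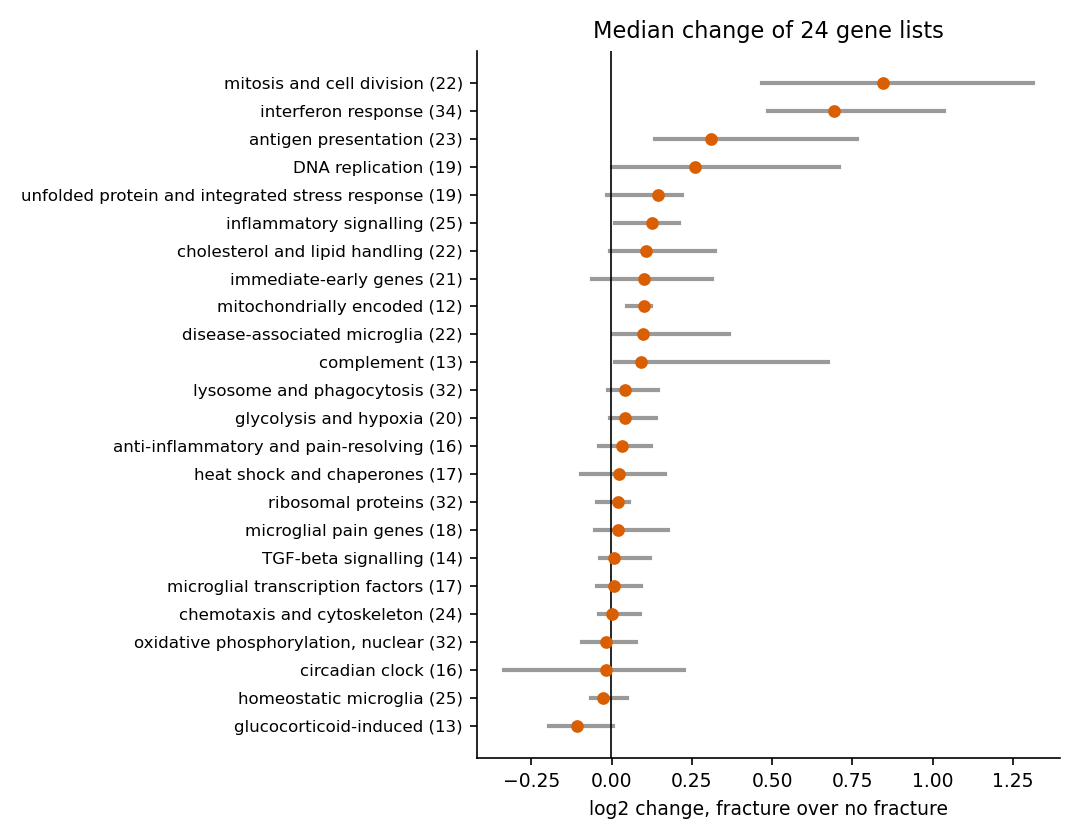
Median log2 change with fracture (points) and the middle range from the lower to the upper quartile (bars) of 24 gene lists in male resident microglia, with the number of genes measured in brackets and a line at the median of all genes. The lists of mitosis, interferon response and antigen presentation genes have the highest medians, 0.85, 0.69 and 0.31, and all 24 lists have 0 called members.

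The remaining lists had medians between −0.11 and 0.15, which with 1 library left out ranged from −0.13 (glucocorticoid-induced genes, without fracture library 2) to 0.27 (mitochondrially encoded genes, without no-fracture library 1). The lowest was that of glucocorticoid-induced genes, where Tsc22d3, a steroid-induced anti-inflammatory gene, was at 206, 229 and 260 CPM without and 188, 171, 161, 178 and 167 CPM with fracture (−0.42 ± 0.16), while Fkbp5 was at 75.2 to 117 and 76.7 to 108 CPM. The highest of them was that of unfolded protein response genes at 0.15. Lysosome and phagocytosis genes had a median of 0.04 over 32, with the Fc receptor genes Fcgr2b and Fcgr1 at 0.25 ± 0.08 and 0.21 ± 0.08. Ribosomal protein genes had 0.02, nuclear oxidative phosphorylation genes −0.02 and mitochondrially encoded genes 0.10. The complement list had 0.09; its member Cfp, properdin, was at 0.0399 to 0.553 and 0.535 to 8.90 CPM.

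Immediate-early genes, which can rise during tissue handling, had a median of 0.10 over 21, with 0 of them called. Fos was at 2.63, 3.36 and 0.119 CPM without fracture and at 0.993, 0.0357, 0.183, 2.37 and 2.54 CPM with it. It varied as widely within a group as between the groups. Clock genes had a median of −0.02 over 16. Bhlhe40, a clock-linked repressor, was at 2.07, 1.51 and 3.28 CPM against 5.04, 6.65, 3.73, 10.02 and 6.68 CPM (1.43 ± 0.42). The hour at which the tissue was taken is not given in the labels.

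Of genes outside the lists, those with the smallest p that met the naming rule did not pass either. Hpgd, encoding the dehydrogenase that inactivates prostaglandins, was at 604, 653 and 632 CPM without fracture and at 505, 477, 404, 500 and 492 CPM with it. All 5 stood below all 3, which the naming rule required, and the change was −0.40 ± 0.08 (edgeR, adjusted p = 0.611). In male repopulated microglia it stood the other way, at 302 and 342 CPM without and 362 to 454 CPM with fracture. The difference between these effects was 0.74 ± 0.13 with an adjusted p of 0.058.

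Ppp1r3d, a glycogen-targeting subunit of protein phosphatase 1, was at 24.2, 28.7 and 34.7 CPM without and 44.8, 46.0, 45.3, 47.9 and 54.0 CPM with fracture (0.70 ± 0.15; adjusted p = 0.643). Spint1, an inhibitor of surface serine proteases, was at 272, 226 and 260 CPM against 387, 298, 333, 321 and 356 CPM (0.42 ± 0.10). Qpctl, a Golgi glutaminyl cyclase that modifies chemokines, was at 21.1, 17 and 21.3 CPM against 30.1, 44.0, 33.5, 28.6 and 33.2 CPM (0.77 ± 0.18). In each, all 5 fracture libraries stood above all 3 others, which the naming rule required. The other higher genes of the rule were Nhlrc3, Rap1gap2, Chek2, Ly9, Tmem168 and Gbp3, at changes of 0.37 to 1.29. The lower ones besides Hpgd and Ccl6 were Cnbp, Prdm2, Dedd2, Abcf3, Otud1, Rad1, Nsun4, Cyfip1, Ank2 and Zdhhc20, at −0.99 to −0.23. Chek2, a kinase of the DNA damage checkpoint, was at 6.14, 6.21 and 2.96 CPM against 12.9, 9.79, 9.81, 12 and 11.7 CPM. DESeq2 called 12 genes, 11 higher and 1 lower, among them G530011O06Rik, Hpgd, Ppp1r3d, Spint1, Qpctl, Hcar2 and Mid1.

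Some genes were named because their fracture effects differed most between groups by unadjusted p. Npnt, an extracellular matrix gene, had a change of 0.29 ± 0.13 in resident and −0.58 ± 0.13 in repopulated males, and Klhdc8b one of −0.43 ± 0.20 and 1.02 ± 0.24. Both differences had an adjusted p of 0.22 and did not pass. Pfkm, a phosphofructokinase gene, was at 0 in both repopulated male libraries without fracture and in 1 of the 7 with it, and at 1.82 to 8.85 CPM in the 8 resident ones. Between the sexes the smallest p were those of Herc6, G530011O06Rik, Fcgr4, BC147527, Fam111a and Gm4951. Fcgr4, an activating Fc receptor, was at 17.3 to 30.1 and 27.5 to 42.3 CPM in resident males and differed by −0.79 ± 0.21 with fracture in resident females, with an adjusted p of the difference of 0.32.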

How the data were processed

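RNA of sorted microglia was measured in 32 libraries, and the comparison uses the 8 male resident ones. The authors deposited 1 table for each sex, with estimated counts for single transcripts as whole numbers. The submitters' processing notes name the build GRCm38 and the tools RSEM 1.3.1, STAR 2.7.6a, cutadapt 3.4 and Trim Galore 0.6.7, DESeq2 1.34.0 with R 4.1.3, and FastQC 0.11.9; the annotation and whether counting used strand were not given in the sources used here. Per the labels' protocols, male libraries were made with SMART-Seq v4 and Nextera DNA Flex, and female ones by a company with another kit. In the male table every transcript reaches 10 counts in 9 or more of 17 libraries, so a gene seen in few libraries is not in it.

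Counts were summed by gene and fitted for all 17 male libraries in 1 model of 4 groups (edgeR 4.0.16, R 4.3.3, TMM, filterByExpr, which removed 0 genes, robust quasi-likelihood F test). Benjamini-Hochberg adjustment covered all genes, and a gene was called when its adjusted p was below 0.05. A positive log2 change means higher with fracture, and its SE is its size over the root of the F value. The contrast of male repopulated minus resident effects came from the same fit. That of female minus male resident effects came from 1 fit of all 32 libraries over 25822 shared transcripts (11617 genes). Mean log2 CPM used a prior count of 2. Total counts per library, and with them the precision for low genes, are given in the results. Positions came from GENCODE M21, where 11580 gene identifiers matched with and 326 without their version. In 88 symbols shared by several identifiers, lists used the one with most counts. The calculations were tested on simulated data.

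The members and the 36 gene lists were chosen with earlier results of these data known, and lists are described by counts and medians without a test. Named genes were the called genes, filled to 12 per direction by smallest p with groups that do not overlap and a higher group averaging 5 CPM or more, without predicted genes and pseudogenes. To these were added the 2 members of smallest p of each list, a panel of microglial, inflammatory and pain genes, and 6 genes per difference test; other list members, and the neighbours of the called gene, were named after their values were seen. Some genes that this rule names are not reported here. Alternatives were RLE or library-total scaling, DESeq2 1.42.0, limma 3.58.1 voom with sample weights, other filters, thinned counts, the replicate block, label number ranges, a fit of the 8 libraries alone, and leaving out each library.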

Additional observations from a re-analysis of the deposited data

Results flagged for a closer look

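In groups of 5 fracture libraries, 136 genes or list means were examined for a library far from the other 4, and 8 stood out; chance alone gives about 1 in 20 groups. Hpgd was lowest in fracture library 3, at 404 CPM against 477 to 505 CPM in the other 4. Ank2 was lowest in library 4, at 21.6 CPM against 24.4 to 24.6 CPM. F13a1 was lowest in library 2, at 0.465 CPM against 2.47 to 3.26 CPM.

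Library 4 was highest for Cfp, at 8.90 CPM against 0.535 to 1.99 CPM, and for the haemoglobin gene Hbb-bs, at 8.35 CPM against 0.0917 to 1.07 CPM. It is also the library with the highest sum of monocyte markers. Mobp, an oligodendrocyte gene, was highest in library 3, at 11.8 CPM against 2.44 to 3.98 CPM. The mean log2 CPM of DNA replication genes was highest in library 1, at 3.90 against 3.34 to 3.47, and that of lysosome and phagocytosis genes in library 3, at 9.28 against 9.21 to 9.23.

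The fracture effect on Bckdhb, a subunit gene of branched-chain keto acid dehydrogenase, differed between repopulated and resident male microglia, with a fitted log2 difference of 9.29 (edgeR, adjusted p = 0.0341). Both repopulated libraries without fracture were at 0 CPM and the 7 with fracture at 1.37 to 8.61 CPM, so the size of the fitted value is not a bound. Resident levels were 2.25 to 5.58 CPM without and 2.36 to 4.97 CPM with fracture.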

How the results depend on the processing

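G530011O06Rik was called in all 20 alternative settings, with log2 changes of 1.59 to 2.02 and an adjusted p of at most 0.0466. The count of genes called for the fracture effect in male resident microglia was 1 in most settings, 12 by DESeq2, 5 with only the 8 resident libraries and 1 to 2 with 1 library left out (2 without no-fracture library 1). The count for the repopulated minus resident difference, 1, became 49 by DESeq2, 0 by limma voom with sample weights, 2 (G530011O06Rik and Hpgd) with at least 5 CPM, 25 with only labels V64 to V79, 0 with the label number range as a factor, 0 with the log2 library total as a covariate (added after the data were seen), and 0 to 2 with 1 library left out. It was 0 without fracture library 2, 3, 4 or 5 and 2 without no-fracture library 2. The count for the female minus male difference, 0, became 24 by DESeq2 and 0 to 1 with 1 library left out (1 without no-fracture library 1). Where a count moved, the cause was not tested.

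No pairing by the replicate numbers of the titles was seen: the deviations of same-numbered libraries correlated at −0.078, −0.011 and −0.015. Those of libraries with different numbers correlated at −0.111 to 0.085. So few values cannot exclude a pairing. With the replicate block the counts were 2 (G530011O06Rik and H2-D1), 57 and 2 for the 3 comparisons. No named gene reversed while called. Depth limits mainly genes below 5 CPM and no-fracture library 2.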
